A study of Homo sapiens with 9 samples.

Results

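The PI3K, AKT and mTOR pathway is described here through 38 of its genes, read as messenger RNA in SW480, a long-established line of human colorectal cancer cells. The genes were picked by symbol, matched to the Ensembl identifiers of the expression table, and cover PI3K subunits, phosphatases, AKT and its upstream kinase, the TSC complex with RHEB, the mTOR complexes, the S6K and 4E-BP outputs, and feedback genes. All 38 were found among the 41041 genes listed. Of these, 32 had a mean of at least 1 FPKM (sequenced fragments scaled by transcript length and by the size of the library) and were tested among 12662 genes that passed this level. PIK3R3, PIK3C3, INPP4B, TBC1D7, RICTOR and DEPTOR lay below it.

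All libraries came from SW480 cells kept for 48 h at 1% oxygen, with 3 biological replicates in each of 3 groups. Cells labelled SFN+5-FU received sulforaphane, an isothiocyanate from cruciferous vegetables, together with the pyrimidine analogue 5-fluorouracil. SFN cells received sulforaphane alone at 25 µM, and control cells were hypoxic and untreated. Neither dose used in the combined treatment is stated in the labels, and normoxic cells or cells on 5-FU alone were not analysed here. The series title names suppression of PI3K/AKT/mTOR and HIF-1α as its subject, and the comparisons below address the transcripts of that pathway.

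Class I PI3K consists of a catalytic and a regulatory subunit and makes a membrane lipid that brings AKT to the plasma membrane, where PDK1 and mTOR complex 2 phosphorylate it. AKT restrains the TSC complex and PRAS40, so that RHEB can activate mTOR complex 1, which drives translation through S6K and by releasing eIF4E from the 4E-BPs. In hypoxia DDIT4 (REDD1) acts through TSC to hold mTOR complex 1 back, and S6K feeds back on IRS adaptors. Most of this signalling runs through phosphorylation, which was not measured; the values here are transcript levels.

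The library labelled SFN replicate 2 stood apart from its group. Over the tested genes it correlated on log2(FPKM + 1) at a Pearson r of 0.963 and 0.968 with the other SFN libraries and of 0.993 with every library labelled SFN+5-FU. For 30 of the 38 pathway genes it lay nearer to the SFN+5-FU mean than to the mean of SFN replicates 1 and 3, and for 20 it lay inside the range of the SFN+5-FU libraries. It is kept under its label, and its part in each result was not tested. For the 38 genes against control, values or calls without it are given where they change a call or turn a direction. They are also given where a called value moved by over 1.5 times, and for several uncalled genes. In the comparison of SFN+5-FU with SFN, and for further pathway genes, they are given only in part. The libraries carried epithelial transcripts, with a summed level of 8 colorectal epithelial markers of 1707 to 1722 FPKM in SFN+5-FU cells, 1768 to 2383 FPKM in SFN cells and 2552 to 2596 FPKM in control cells. That sum was lower in every treated library, and its part in the pathway results was not tested. Of the markers of other cells, PTPRC and CDH5 were listed at 0 in every library, and the sums of 4 fibroblast, 4 leukocyte and 3 endothelial markers reached at most 2.03, 2.18 and 0.87 FPKM, each in a control library.

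In control cells the 38 transcripts spanned means of 0.213 FPKM for DEPTOR to 133 FPKM for DDIT4, with a median of 5.52 FPKM. The order of levels began with DDIT4 (133 ± 18.9), EIF4B (105 ± 5.76), EIF4EBP1 (64.5 ± 2.56), RHEB (39.6 ± 1.45), INPPL1 (30.2 ± 0.535), AKT1 (26.2 ± 0.2) and EIF4EBP2 (23.9 ± 0.729; SD, n = 3 each). These were the 7 genes above 20 FPKM, and 28 of the 38 were below 10 FPKM. The ranges of DDIT4 and EIF4B did not overlap, at 113.96 to 151.66 and 99.02 to 110.38 FPKM. The most abundant components were thus a hypoxia-linked inhibitor, translation factors, a GTPase, a phosphatase and one AKT kinase, while the catalytic subunits of PI3K were all under 10 FPKM.

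With SFN+5-FU, DDIT4 fell to 13.0 ± 1.82 FPKM, against 133 ± 18.9 FPKM in control cells (SD, n = 3 each). The class I catalytic subunits PIK3CB and PIK3CD, the PI3K inhibitor PIK3IP1, the kinases AKT1 and AKT2 and the mTOR complex 1 scaffold RPTOR also fell, and PIK3CA, PRAS40 (AKT1S1), S6K2 (RPS6KB2) and EIF4E rose. Of the 32 tested genes, 9 were called higher and 14 lower than in control cells (limma, Benjamini-Hochberg adjusted p of 0.05), and 9 were not called. Among all 12662 genes 66.2% were called in this comparison, 38.3% higher and 28.0% lower, so a call is the usual state of a gene here and the count as a whole is near that background. The median log2 fold change was -0.11 over the tested pathway genes and 0.10 over all genes. Median-of-ratios scaling gave 6 genes higher and 16 lower, with 32.1% of all tested genes called higher and 32.8% lower and a median of 0.00 over all genes. The groups did not overlap for 25 of the 32 genes, 9 above and 16 below control, beside 78.8% of all tested genes. Without SFN replicate 2 in the shared fit, 9 were called higher and 16 lower (74.7% of all genes called), with PIK3R2 and EIF4EBP1 added to the lower ones. On FPKM without the added 1, the means of 5 called genes in SFN+5-FU cells were at most 0.5 of those in control cells, at 0.0977 of control for DDIT4, 0.331 for PIK3IP1, 0.397 for PIK3CD, 0.451 for PHLPP1 and 0.479 for PIK3CB, and no called gene reached 2 times its control mean. On log2(FPKM + 1), which shrinks the change of low genes, the called values other than DDIT4 lay between -0.90 and 0.47.

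With SFN alone, DDIT4, PIK3IP1, PIK3CD, AKT1, INPPL1, EIF4B, IRS2, PHLPP1 and TSC2 were among 11 genes called lower than in control cells, joined by PIK3CB and EIF4EBP2. PIK3R1, AKT1S1 and EIF4E were the 3 called higher, and 18 were not called. The share of all tested genes called was 50.0%, with 27.5% higher and 22.5% lower. The median log2 fold change was -0.05 over the pathway genes and 0.05 over all genes. Under median-of-ratios scaling 3 pathway genes were higher and 11 lower, with 23.5% of all tested genes higher and 26.1% lower. Without SFN replicate 2 there were 5 genes higher and 11 lower against a background of 56.9%, RPTOR and MAPKAP1 being the ones added, and the median was 0.02. With all libraries the groups did not overlap for 16 of the 32 genes, 5 above and 11 below control, beside 57.4% of all tested genes. The means of 2 called genes in SFN cells were at most 0.5 of those in control cells, DDIT4 at 0.232 and PIK3IP1 at 0.317 of control. On log2(FPKM + 1) the other called values ran from -0.85 to 0.49. Both comparisons use the same control libraries, so their values are given side by side and are not independent of each other. In bulk libraries, less of a transcript in every cell and fewer cells carrying it cannot be told apart.

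**Figure D1:**
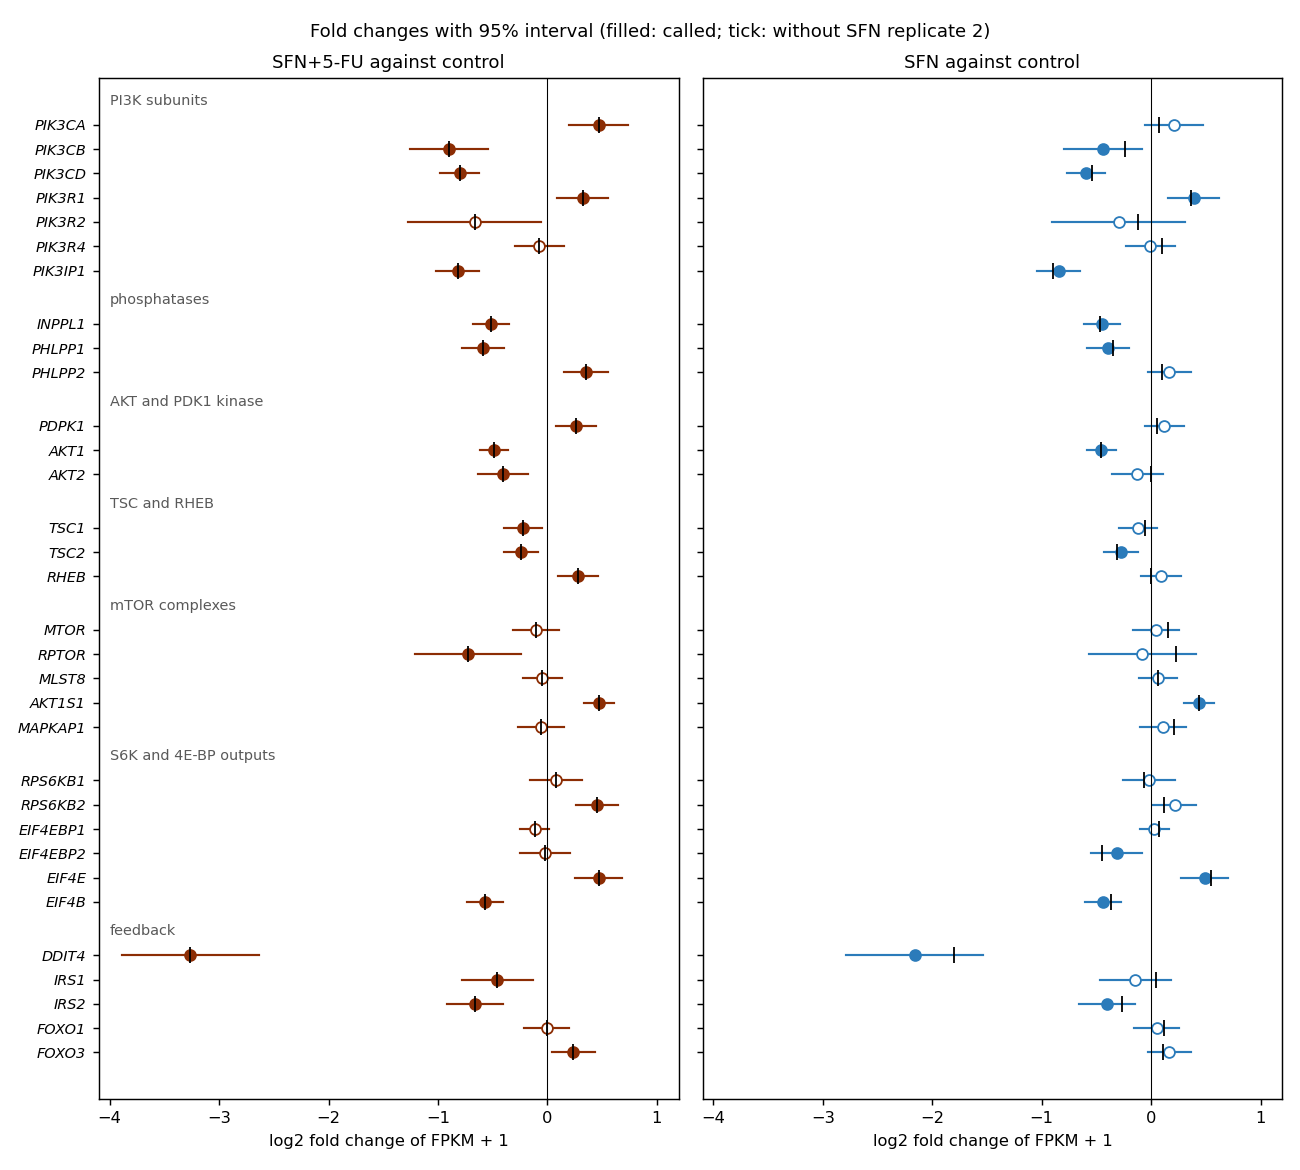
Log2 fold changes of FPKM + 1 for the 32 tested pathway genes, SFN+5-FU against control on the left and SFN against control on the right, grouped by role. Points carry 95% intervals from limma, filled points were called at an adjusted p of 0.05, and black ticks give the value without SFN replicate 2. DDIT4 lies far to the left in both panels, and the tick for RPTOR lies on the other side of 0 from its point in the SFN panel.

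The promoters of 4 genes are shown because they carry the largest fall in the pathway (DDIT4), the fall of an inhibitor from a low level (PIK3IP1), the fall of a kinase at the centre of the pathway (AKT1) and one of the rises (EIF4E). Each is a 300-base window around the annotated start from RefSeq on GRCh38.p14, printed 5′ to 3′ along the gene's strand. Capitals mark ACGTG or GCGTG on either strand, the core of hypoxia response elements, which read CACGT or CACGC on the opposite strand, and the forkhead motif GTAAACA, which was searched on both strands and is absent from these 4 windows.
DDIT4: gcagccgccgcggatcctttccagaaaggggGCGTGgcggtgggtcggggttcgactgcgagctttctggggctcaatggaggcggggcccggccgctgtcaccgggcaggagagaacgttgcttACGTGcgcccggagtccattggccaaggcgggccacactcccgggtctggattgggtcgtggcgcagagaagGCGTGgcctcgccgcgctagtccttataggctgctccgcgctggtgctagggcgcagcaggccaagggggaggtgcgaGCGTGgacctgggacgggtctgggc
PIK3IP1: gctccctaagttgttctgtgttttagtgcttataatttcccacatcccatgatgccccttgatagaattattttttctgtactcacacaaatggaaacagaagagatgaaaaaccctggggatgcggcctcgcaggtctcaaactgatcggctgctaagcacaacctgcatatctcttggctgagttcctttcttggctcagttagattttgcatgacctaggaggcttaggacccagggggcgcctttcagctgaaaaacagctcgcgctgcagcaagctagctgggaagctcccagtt
AKT1: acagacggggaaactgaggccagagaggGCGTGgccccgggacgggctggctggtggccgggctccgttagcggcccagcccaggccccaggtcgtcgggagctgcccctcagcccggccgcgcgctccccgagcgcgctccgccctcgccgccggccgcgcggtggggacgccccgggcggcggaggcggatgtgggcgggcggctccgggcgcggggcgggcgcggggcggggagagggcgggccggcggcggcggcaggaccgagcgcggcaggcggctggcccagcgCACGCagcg
EIF4E: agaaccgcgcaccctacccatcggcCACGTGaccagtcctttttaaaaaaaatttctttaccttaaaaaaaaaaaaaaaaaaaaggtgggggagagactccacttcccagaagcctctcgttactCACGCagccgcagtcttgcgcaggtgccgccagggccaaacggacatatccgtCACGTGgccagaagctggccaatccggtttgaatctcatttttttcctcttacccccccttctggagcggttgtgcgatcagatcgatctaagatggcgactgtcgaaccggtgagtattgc
The DDIT4 window (chr10:72273674-72273973, plus strand) holds 4 cores, beginning at bases -219, -125, -53 and 26 relative to the start, all on the gene's strand. The PIK3IP1 window (chr22:31292485-31292784, minus strand) holds none. The AKT1 window (chr14:104795699-104795998, minus strand) holds 2, at -222 and on the opposite strand at 42. The EIF4E window (chr4:98929084-98929383, minus strand) has 5 matches, of which 4 come from the palindrome CACGTG at -225 and -72, read on both strands, and the last from the opposite strand at -125. Promoters were found for 34 of the 38 genes. The core occurred in 19 of them (55.9%) and in 13213 of 27305 promoters in all (48.4%), GTAAACA in 1 (2.94%; the PIK3CA promoter) and in 3.41% of all, and CACGTG in 4 (11.8%) and in 7.43% of all. A match describes letters in a window and is not a measured binding site.

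Among the PI3K subunits, the catalytic genes moved in different directions. PIK3CB (p110β) measured 3.56, 4.33 and 3.28 FPKM in SFN+5-FU cells, 6.37, 3.89 and 6.48 FPKM in SFN cells, and 7.96, 7.53 and 7.79 FPKM in control cells. Every treated library lay below every control library, and SFN replicate 2 lay within the SFN+5-FU range. The log2 fold change was -0.90 (SE 0.158, adjusted p = 0.000961) with SFN+5-FU and -0.44 (SE 0.158, adjusted p = 0.0429) with SFN. Without SFN replicate 2 the SFN value shrank to -0.24 (adjusted p = 0.0467). The SFN call was lost under 8 of 20 alternatives, where the value was -0.46 to -0.42 and the adjusted p up to 0.109.

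PIK3CD (p110δ, the isoform most abundant in leukocytes) measured 0.97, 0.91 and 0.99 FPKM in SFN+5-FU cells, 1.40, 1.09 and 1.29 FPKM in SFN cells, and 2.48, 2.51 and 2.25 FPKM in control cells. The 3 groups did not overlap, and the gene fell by 0.80 on the log2 scale with SFN+5-FU (SE 0.0783, adjusted p = 4.52e-05) and by 0.60 with SFN (SE 0.0783, adjusted p = 0.000336). PIK3CA (p110α) measured 3.22, 3.27 and 2.98 FPKM in SFN+5-FU cells, 1.97, 3.16 and 2.37 FPKM in SFN cells, and 2.14, 1.80 and 2.08 FPKM in control cells. The SFN+5-FU libraries lay above all control libraries, whereas the SFN group overlapped with control, its replicate 2 being the high one. PIK3CA rose by 0.47 with SFN+5-FU (SE 0.118, adjusted p = 0.00672), and its SFN value of 0.21 was not called (adjusted p = 0.173; 0.08 without SFN replicate 2). Without SFN replicate 1 the SFN value was called, at 0.32 (adjusted p = 0.0349). Corrected for GC content and length, the SFN+5-FU value was 0.20 and no longer called (adjusted p = 0.066).

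The 3 catalytic transcripts therefore made up the pool in other proportions, which were computed after their values were seen and have no test. PIK3CA was 40.4 ± 1.69% of their summed FPKM in SFN+5-FU cells, 27.5 ± 9.95% in SFN cells and 16.5 ± 1.09% in control cells (SD, n = 3 each). The ratio of PIK3CB to PIK3CA was 1.11, 1.32 and 1.10 in SFN+5-FU cells, 3.23, 1.23 and 2.73 in SFN cells, and 3.72, 4.18 and 3.75 in control cells. The value of SFN replicate 2 fell in the SFN+5-FU range, and the other SFN libraries lay between that range and control. Their summed level was 7.84 ± 0.634 FPKM in SFN+5-FU cells, 9.34 ± 1.06 FPKM in SFN cells and 12.2 ± 0.374 FPKM in control cells.

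**Figure D2:**
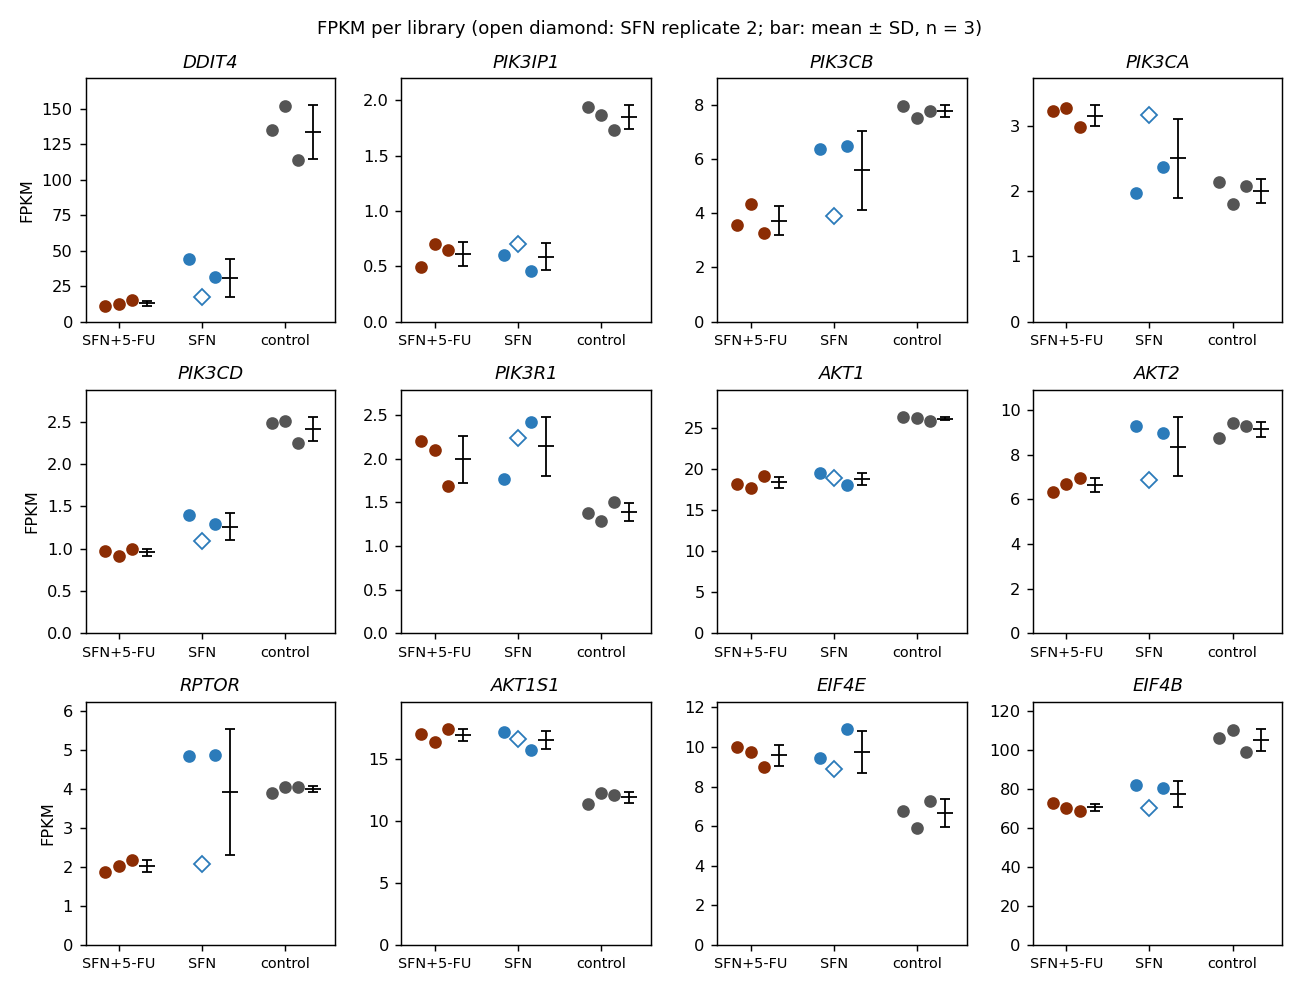
FPKM of 12 pathway genes in each library, with the SFN+5-FU, SFN and control groups from left to right and the mean and SD (n = 3) beside each group. The open diamond is SFN replicate 2, which sits at the level of the SFN+5-FU libraries for PIK3CB, PIK3CA, AKT2 and RPTOR.

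The regulatory subunit PIK3R1 (p85α), which stabilises and restrains the catalytic subunit, measured 2.20, 2.10 and 1.69 FPKM in SFN+5-FU cells, 1.77, 2.24 and 2.42 FPKM in SFN cells, and 1.38, 1.29 and 1.50 FPKM in control cells. All treated libraries were above all control libraries. PIK3R1 rose by 0.32 with SFN+5-FU (SE 0.103, adjusted p = 0.0204) and by 0.39 with SFN (SE 0.103, adjusted p = 0.012). The SFN+5-FU call was lost after the GC content and length correction (0.06, adjusted p = 0.524) and when control replicate 1, control replicate 2, SFN+5-FU replicate 1 or SFN+5-FU replicate 2 was left out (adjusted p up to 0.0772). PIK3R2 (p85β) varied widely within groups, with 4.85 to 9.71 FPKM in SFN+5-FU cells, 7.29 to 12.61 FPKM in SFN cells and 8.69 to 15.61 FPKM in control cells, and was not called in either comparison (-0.66, adjusted p = 0.0528 with SFN+5-FU; -0.30, adjusted p = 0.382 with SFN). It was called lower with SFN+5-FU under 8 alternatives (adjusted p down to 0.00585 with library weights), and its SFN value was -0.12 without SFN replicate 2. PIK3R4 (the VPS15 partner of the class III enzyme) stayed between 5.54 and 7.23 FPKM in all libraries and was not called (-0.08 with SFN+5-FU; -0.01 with SFN, 0.10 without SFN replicate 2). The GC content and length correction gave a call with SFN+5-FU (-0.26, adjusted p = 0.0479). The class III enzyme PIK3C3 itself (VPS34) and the regulatory subunit PIK3R3 were under the tested level. PIK3C3 was at 0.48 to 0.58 FPKM in SFN+5-FU cells, 0.59 to 0.80 FPKM in SFN cells and 0.66 to 0.83 FPKM in control cells. PIK3R3 was at 0.97 to 1.31 FPKM in SFN+5-FU cells, 0.64 to 1.14 FPKM in SFN cells and 0.59 to 0.86 FPKM in control cells.

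PIK3IP1, a membrane protein that binds and inhibits the catalytic subunit, had the largest fall among the PI3K genes with SFN alone. It measured 0.49, 0.70 and 0.65 FPKM in SFN+5-FU cells, 0.60, 0.70 and 0.46 FPKM in SFN cells, and 1.94, 1.87 and 1.73 FPKM in control cells. Every treated library held less than 1 FPKM and every control library more, and SFN replicate 2 lay with the rest. The log2 fold change was -0.82 with SFN+5-FU (SE 0.0881, adjusted p = 7.02e-05) and -0.85 with SFN (SE 0.0881, adjusted p = 0.00011). On this scale the 1 FPKM added to each value shrinks the change of so low a gene.

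Of the phosphatases, INPPL1 (SHIP2, which dephosphorylates the lipid product of PI3K) measured 20.58, 19.65 and 22.28 FPKM in SFN+5-FU cells, 23.26, 22.31 and 20.01 FPKM in SFN cells, and 30.28, 30.63 and 29.58 FPKM in control cells. PHLPP1, which removes an activating phosphate from AKT, measured 0.76, 0.65 and 0.74 FPKM in SFN+5-FU cells, 1.14, 0.85 and 0.93 FPKM in SFN cells, and 1.66, 1.68 and 1.42 FPKM in control cells. Both genes were lower in every treated library than in every control library. INPPL1 fell by 0.51 with SFN+5-FU (adjusted p = 0.000292) and by 0.45 with SFN (adjusted p = 0.00101), and PHLPP1 fell by 0.59 with SFN+5-FU (adjusted p = 0.000306) and by 0.39 with SFN (adjusted p = 0.00446).

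PHLPP2, which acts on AKT like PHLPP1, went the other way. It measured 1.44, 1.56 and 1.28 FPKM in SFN+5-FU cells, 0.96, 1.33 and 1.12 FPKM in SFN cells, and 0.86, 0.86 and 0.98 FPKM in control cells. The SFN+5-FU libraries were all above control, and the rise of 0.35 was called (SE 0.088, adjusted p = 0.00633). The SFN group overlapped with control at its low end, and its value of 0.17 was not called (adjusted p = 0.143; 0.10 without SFN replicate 2). PHLPP2 was called higher with SFN under 3 alternatives (adjusted p down to 0.0286). INPP4B, a phosphatase of a later lipid in the same series, was under the tested level at 0.26 to 0.45 FPKM.

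AKT1 was more abundant than AKT2 in every library. It measured 18.22, 17.78 and 19.20 FPKM in SFN+5-FU cells, 19.50, 18.93 and 18.06 FPKM in SFN cells, and 26.34, 26.26 and 25.96 FPKM in control cells. The treated libraries, SFN replicate 2 among them, were close together and all below control. AKT1 fell by 0.49 on the log2 scale with SFN+5-FU (SE 0.0578, adjusted p = 0.000116) and by 0.46 with SFN (SE 0.0578, adjusted p = 0.000285). A correction for GC content and length kept both calls (-0.39, adjusted p = 0.000165 with SFN+5-FU; -0.35, adjusted p = 0.000491 with SFN). The same correction from the longest transcript, added after the data were seen, gave -0.08 with SFN+5-FU (adjusted p = 0.161) and -0.14 with SFN (adjusted p = 0.0428).

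AKT2 measured 6.33, 6.67 and 6.95 FPKM in SFN+5-FU cells, 9.27, 6.85 and 8.99 FPKM in SFN cells, and 8.77, 9.41 and 9.27 FPKM in control cells. SFN replicates 1 and 3 lay within the control range, and SFN replicate 2 within the SFN+5-FU range. AKT2 fell by 0.41 with SFN+5-FU (SE 0.102, adjusted p = 0.00635), a call lost under the longest-transcript correction (-0.19, adjusted p = 0.129). With SFN its value was -0.13 (adjusted p = 0.332), and it was close to 0 without SFN replicate 2 (adjusted p = 0.976). The ratio of AKT1 to AKT2, computed after the values were seen and not tested, was 2.88, 2.67 and 2.76 in SFN+5-FU cells, 2.10, 2.76 and 2.01 in SFN cells, and 3.00, 2.79 and 2.80 in control cells. It was lowest in SFN replicates 1 and 3.

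PDPK1 (PDK1), which phosphorylates the activation loop of AKT, measured 6.39, 6.52 and 6.06 FPKM in SFN+5-FU cells, 5.35, 6.28 and 5.32 FPKM in SFN cells, and 5.09, 4.77 and 5.46 FPKM in control cells. The SFN+5-FU libraries were above all control libraries and the SFN group overlapped with control. PDPK1 rose by 0.26 with SFN+5-FU (SE 0.0803, adjusted p = 0.0166), a call lost under median-of-ratios scaling (0.17, adjusted p = 0.0579) and without control replicate 2, SFN+5-FU replicate 1 or SFN+5-FU replicate 2 (adjusted p up to 0.0675). Its SFN value of 0.12 was not called (adjusted p = 0.233; 0.05 without SFN replicate 2). PDPK1 was called higher with SFN under the longest-transcript correction (0.26, adjusted p = 0.0251). The copy PDPK2P, which averaged 0.937 FPKM over all libraries and reached at most 1.68 FPKM, may share reads with PDPK1.

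In the TSC complex, which switches RHEB off, TSC1 measured 1.62, 1.68 and 1.63 FPKM in SFN+5-FU cells, 1.90, 1.61 and 2.03 FPKM in SFN cells, and 2.14, 2.16 and 1.97 FPKM in control cells. TSC2, the subunit with the GTPase-activating domain, measured 2.29, 2.21 and 2.29 FPKM in SFN+5-FU cells, 2.10, 2.33 and 2.12 FPKM in SFN cells, and 2.90, 2.99 and 2.70 FPKM in control cells. TSC2 was lower in every treated library than in control, while TSC1 was separated from control with SFN+5-FU and overlapped with it under SFN. TSC1 fell by 0.22 with SFN+5-FU (adjusted p = 0.0286; lost under 9 alternatives) and was not called with SFN (-0.12, adjusted p = 0.222; -0.06 without SFN replicate 2). TSC2 fell by 0.24 with SFN+5-FU (adjusted p = 0.0117) and by 0.28 with SFN (adjusted p = 0.00859), and both calls were lost after the GC content and length correction (-0.05, adjusted p = 0.416 with SFN+5-FU; -0.10, adjusted p = 0.174 with SFN). The third subunit, TBC1D7, was under the tested level, with 0.67 to 0.86 FPKM in SFN+5-FU cells, 0.69 to 0.84 FPKM in SFN cells and 0.99 to 1.05 FPKM in control cells.

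RHEB, the GTPase that activates mTOR complex 1, measured 49.88, 46.82 and 48.06 FPKM in SFN+5-FU cells, 39.45, 48.07 and 39.79 FPKM in SFN cells, and 37.91, 40.16 and 40.61 FPKM in control cells. SFN replicate 2 was at the SFN+5-FU level, and SFN replicates 1 and 3 at the control level. RHEB rose by 0.28 with SFN+5-FU (SE 0.081, adjusted p = 0.0129) and was not called with SFN (0.09, adjusted p = 0.36; adjusted p = 0.968 without SFN replicate 2). The rise was lost under median-of-ratios scaling (0.17, adjusted p = 0.0533), under quantile normalization (0.13, adjusted p = 0.136), after the GC content and length correction (0.13, adjusted p = 0.145) and without control replicate 1 (0.25, adjusted p = 0.0519). Its near-identical processed copy RHEBP2 was listed at 60.9 ± 2.1 FPKM in SFN+5-FU cells, 53.4 ± 7.19 FPKM in SFN cells and 47.7 ± 1.06 FPKM in control cells (SD, n = 3 each), so the split of reads between the copies leaves the level of RHEB uncertain. A further copy, RHEBP1, averaged 13.8 FPKM over all libraries.

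The kinase MTOR was not called in either comparison with all libraries weighted alike. It measured 5.21, 5.68 and 5.40 FPKM in SFN+5-FU cells, 6.62, 5.17 and 6.75 FPKM in SFN cells, and 6.09, 5.86 and 5.82 FPKM in control cells. The SFN+5-FU libraries were all slightly below control, and SFN replicate 2 was the lowest library of all. The log2 fold change was -0.11 with SFN+5-FU (95% interval -0.32 to 0.10, adjusted p = 0.329) and 0.05 with SFN (95% interval -0.16 to 0.25, adjusted p = 0.707). Without SFN replicate 2 the SFN value was 0.15 (adjusted p = 0.0514). With library weights MTOR was called in both, lower with SFN+5-FU (-0.12, adjusted p = 0.0396) and higher with SFN (0.14, adjusted p = 0.0361). The weights of SFN replicates 1, 2 and 3 were 0.419, 0.0893 and 3.03, so the weighted SFN value rests mostly on SFN replicate 3.

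RPTOR (raptor, the scaffold that brings substrates to mTOR complex 1) had a split SFN group. It measured 1.86, 2.03 and 2.18 FPKM in SFN+5-FU cells, 4.84, 2.06 and 4.87 FPKM in SFN cells, and 3.90, 4.03 and 4.05 FPKM in control cells. SFN+5-FU libraries and SFN replicate 2 lay near 2 FPKM, control libraries near 4 FPKM, and SFN replicates 1 and 3 above them. RPTOR fell by 0.73 with SFN+5-FU (SE 0.217, adjusted p = 0.015; -0.42 and adjusted p = 0.116 under the longest-transcript correction). With SFN its value was -0.08 (adjusted p = 0.771), and without SFN replicate 2 it was called higher than control at 0.23 (adjusted p = 0.0163). The ratio of RPTOR to MTOR, computed after the values were seen, was 0.357, 0.357 and 0.404 in SFN+5-FU cells, 0.731, 0.398 and 0.721 in SFN cells, and 0.64, 0.688 and 0.696 in control cells.

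AKT1S1 (PRAS40, an inhibitor of mTOR complex 1 that AKT phosphorylates) rose in both treated groups. It measured 17.01, 16.36 and 17.38 FPKM in SFN+5-FU cells, 17.17, 16.58 and 15.72 FPKM in SFN cells, and 11.39, 12.20 and 12.09 FPKM in control cells. All treated libraries lay well above control and close to each other. The rise was 0.47 with SFN+5-FU (SE 0.0615, adjusted p = 0.000181) and 0.44 with SFN (SE 0.0615, adjusted p = 0.000464), and no alternative tried ended either call.

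The remaining subunits of the mTOR complexes were either not called or too low to test. MLST8, shared by both complexes, was at 9.23 to 9.80 FPKM in SFN+5-FU cells, 10.35 to 10.42 FPKM in SFN cells and 8.74 to 10.82 FPKM in control cells (-0.04, adjusted p = 0.632 with SFN+5-FU; 0.06, adjusted p = 0.52 with SFN). MAPKAP1 (SIN1 of complex 2) was at 16.01 to 17.13 FPKM in SFN+5-FU cells, 16.04 to 20.56 FPKM in SFN cells and 16.32 to 18.20 FPKM in control cells (-0.06, adjusted p = 0.585 with SFN+5-FU; 0.11, adjusted p = 0.361 with SFN), with an SFN value of 0.21 (adjusted p = 0.0138) without SFN replicate 2. RICTOR, the defining subunit of complex 2, was below the tested level at 0.70 to 0.88 FPKM in SFN+5-FU cells, 0.89 to 1.06 FPKM in SFN cells and 1.17 to 1.22 FPKM in control cells. Both treated groups lay below control without overlap, and in a fit without the filter RICTOR fell by 0.32 with SFN+5-FU (adjusted p = 0.0162) and was not called with SFN (-0.18, adjusted p = 0.172). In that fit PIK3R3, PIK3C3, INPP4B, TBC1D7 and DEPTOR were not called against control in either comparison (adjusted p of 0.0759 to 0.358 with SFN+5-FU). DEPTOR, an inhibitor of both complexes, was at most 0.28 FPKM.

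Among the outputs, the S6 kinases differed from each other. RPS6KB2 (S6K2) measured 13.36, 13.12 and 14.11 FPKM in SFN+5-FU cells, 10.43, 13.09 and 10.55 FPKM in SFN cells, and 9.69, 9.38 and 9.74 FPKM in control cells. RPS6KB1 (S6K1) measured 4.26, 4.11 and 3.43 FPKM in SFN+5-FU cells, 3.06, 3.91 and 3.85 FPKM in SFN cells, and 3.75, 3.31 and 3.92 FPKM in control cells. RPS6KB2 was above control in every treated library, and RPS6KB1 overlapped among all groups. RPS6KB2 rose by 0.45 with SFN+5-FU (SE 0.0863, adjusted p = 0.00148). Its SFN value of 0.21 was not called (adjusted p = 0.0646) and was 0.12 without SFN replicate 2. It was called higher with SFN under 4 alternatives, among them the GC content and length correction (0.29, adjusted p = 0.00933). RPS6KB1 was not called in either (0.08, 95% interval -0.15 to 0.32 with SFN+5-FU, and -0.02, 95% interval -0.25 to 0.22 with SFN). After that correction RPS6KB1 was called lower with SFN (-0.20, adjusted p = 0.0377).

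EIF4EBP1 (4E-BP1), the more abundant of the repressors that bind eIF4E, measured 59.02, 59.03 and 60.27 FPKM in SFN+5-FU cells, 67.36, 62.47 and 67.91 FPKM in SFN cells, and 66.44, 61.62 and 65.52 FPKM in control cells. EIF4EBP2 (4E-BP2) measured 23.33, 24.06 and 23.36 FPKM in SFN+5-FU cells, 17.68, 23.01 and 16.91 FPKM in SFN cells, and 23.81, 24.73 and 23.29 FPKM in control cells. EIF4EBP1 was lowest in the SFN+5-FU libraries, without passing the test (-0.12, adjusted p = 0.103; called lower under 5 alternatives), and was not called with SFN (0.03, adjusted p = 0.687). EIF4EBP2 was at the control level with SFN+5-FU (-0.02, adjusted p = 0.869) and fell with SFN by 0.32 (SE 0.102, adjusted p = 0.0283). The fall was carried by SFN replicates 1 and 3 (-0.45, adjusted p = 0.000107 without replicate 2), and 8 alternatives ended the call, with adjusted p up to 0.0911.

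EIF4E, the cap-binding protein that the 4E-BPs hold, measured 9.98, 9.76 and 8.97 FPKM in SFN+5-FU cells, 9.43, 8.89 and 10.93 FPKM in SFN cells, and 6.76, 5.92 and 7.29 FPKM in control cells. EIF4B, a cofactor of the helicase eIF4A and a target of S6K, measured 72.62, 70.41 and 68.60 FPKM in SFN+5-FU cells, 81.99, 70.01 and 80.45 FPKM in SFN cells, and 106.40, 110.38 and 99.02 FPKM in control cells. EIF4E was above and EIF4B below control in every treated library. EIF4E rose by 0.47 with SFN+5-FU (SE 0.0952, adjusted p = 0.00213) and by 0.49 with SFN (SE 0.0952, adjusted p = 0.00267), while EIF4B fell by 0.57 with SFN+5-FU (SE 0.0741, adjusted p = 0.000184) and by 0.44 with SFN (SE 0.0741, adjusted p = 0.00125). After the GC content and length correction the rise of EIF4E shrank to 0.22 with SFN+5-FU (adjusted p = 0.0427) and to 0.31 with SFN (adjusted p = 0.0135). The processed copy EIF4EP2, at 12.8 ± 0.87 FPKM in SFN+5-FU cells, 12.8 ± 1.23 FPKM in SFN cells and 9.13 ± 1.2 FPKM in control cells (SD, n = 3 each), may share reads with EIF4E, whose own level is therefore uncertain. The copies EIF4BP3, EIF4BP6 and EIF4BP7 averaged 1.44, 1.85 and 4.28 FPKM over all libraries, far under EIF4B.

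The ratio of summed EIF4EBP1 and EIF4EBP2 to EIF4E, computed after the values were seen and not tested, was 8.25, 8.51 and 9.32 in SFN+5-FU cells, 9.02, 9.62 and 7.76 in SFN cells, and 13.4, 14.6 and 12.2 in control cells. The ratio was lower in every treated library than in every control library. Because EIF4EP2 may share reads with EIF4E, the level of this ratio is uncertain as well. This ratio is of RNA levels and takes no account of the phosphorylation that controls 4E-BP binding.

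**Figure D3:**
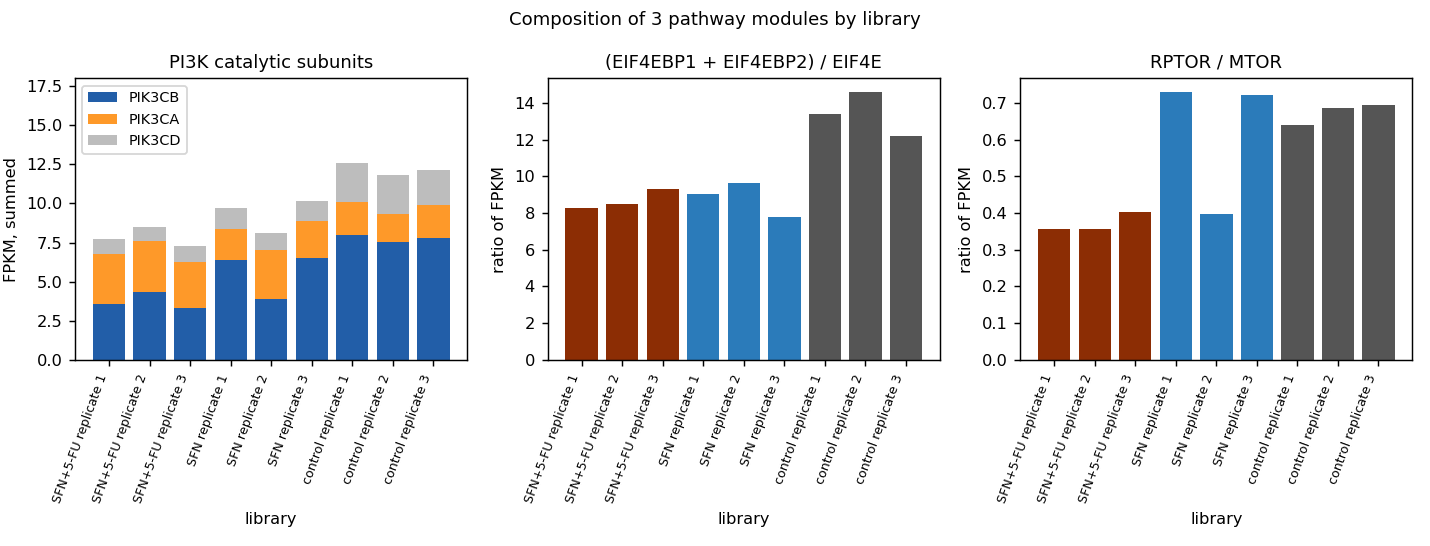
Left, FPKM of the catalytic subunits PIK3CB, PIK3CA and PIK3CD stacked for each library. Middle and right, the ratio of EIF4EBP1 plus EIF4EBP2 to EIF4E and the ratio of RPTOR to MTOR in each library, with SFN+5-FU, SFN and control from left to right. The 4E-BP to EIF4E ratio is at most 9.62 in treated and at least 12.2 in control libraries, and the RPTOR to MTOR ratio separates SFN+5-FU and SFN replicate 2 from the rest.

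DDIT4 had the largest change of the pathway. It measured 11.32, 12.72 and 14.93 FPKM in SFN+5-FU cells, 44.02, 17.22 and 31.42 FPKM in SFN cells, and 134.86, 151.66 and 113.96 FPKM in control cells. The 3 groups did not overlap, and SFN replicate 2 was the SFN library closest to the SFN+5-FU group. DDIT4 fell by 3.26 on the log2 scale with SFN+5-FU (SE 0.277, adjusted p = 2.29e-05) and by 2.16 with SFN (SE 0.277, adjusted p = 0.0003; -1.81 and adjusted p = 4.35e-05 without SFN replicate 2). No alternative tried ended either call, and the values ranged over them from -3.42 to -2.94 with SFN+5-FU and from -2.46 to -1.81 with SFN. Its promoter is the one printed above with 4 hypoxia response cores, whose part in the fall was not tested. By the same search EIF4E, which rose, had 5 matches, EIF4B, which fell, had 5, and PIK3IP1, which fell, had none.

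The insulin receptor substrates, adaptors that carry PI3K to activated receptors, were lower in SFN+5-FU cells. IRS2 measured 5.92, 5.99 and 5.72 FPKM in SFN+5-FU cells, 7.93, 5.79 and 8.10 FPKM in SFN cells, and 10.25, 10.36 and 9.04 FPKM in control cells. IRS1 measured 1.96, 1.98 and 1.71 FPKM in SFN+5-FU cells, 3.03, 1.75 and 3.14 FPKM in SFN cells, and 2.87, 3.13 and 2.87 FPKM in control cells. IRS2 was below control in every treated library, whereas IRS1 in SFN replicates 1 and 3 was at the control level. IRS2 fell by 0.66 with SFN+5-FU (SE 0.113, adjusted p = 0.000817) and by 0.41 with SFN (SE 0.113, adjusted p = 0.0149; -0.27 and adjusted p = 0.00781 without SFN replicate 2). The SFN call was lost after the GC content and length correction (-0.18, adjusted p = 0.227) and without control replicate 1 or 2 (adjusted p of 0.0544 and 0.0549). IRS1 fell by 0.46 with SFN+5-FU (SE 0.144, adjusted p = 0.0193; lost under 5 alternatives) and was not called with SFN (-0.14, adjusted p = 0.431; 0.05 without SFN replicate 2).

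The FOXO transcription factors, which AKT keeps out of the nucleus, showed small differences. FOXO3 measured 9.14, 9.19 and 7.79 FPKM in SFN+5-FU cells, 7.44, 8.97 and 8.30 FPKM in SFN cells, and 6.88, 7.41 and 7.38 FPKM in control cells. All treated libraries were above control, the closest by a narrow margin. FOXO3 rose by 0.24 with SFN+5-FU (SE 0.0874, adjusted p = 0.0372), a call lost under 8 alternatives. It was not called with SFN (0.16, adjusted p = 0.143), with a value of 0.11 without SFN replicate 2. With SFN it was called higher under 3 alternatives (adjusted p down to 0.0141). FOXO1 lay between 1.89 and 2.39 FPKM in all libraries and was not called in either comparison (-0.01, adjusted p = 0.953 with SFN+5-FU; 0.05, adjusted p = 0.666 with SFN).

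SFN+5-FU cells differ from SFN cells in having received 5-FU, and possibly in their sulforaphane dose, which is not stated for the combined treatment. This comparison called none of the 32 pathway genes with limma. Unadjusted p was under 0.05 for 11 of them, 3 higher and 8 lower, and over all tested genes 1 was called, which is 0.00790%, against 3982 at an unadjusted p under 0.05. The median log2 fold change was -0.07 over the pathway genes and 0.03 over all genes. Groups did not overlap for 7 of the 32 genes, with a background of 20.9%: RPS6KB2 and EIF4EBP2 were higher and PIK3CD, PHLPP1, MLST8, EIF4EBP1 and DDIT4 lower with SFN+5-FU. SFN replicate 2 enters the SFN mean and the spread here, so the values without it follow. It was set apart because it resembles the SFN+5-FU libraries, so leaving it out by itself tends to widen this comparison and narrow the spread. The calls without it are therefore a description and no independent support for a difference. Leaving out SFN replicate 1 or SFN replicate 3 instead gave 0 genes called.

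Without SFN replicate 2, 6 of the 32 genes were called higher and 12 lower with SFN+5-FU than with the SFN libraries left, with 51.2% of all tested genes called. DDIT4 was at -1.46 on the log2 scale (adjusted p = 0.000166) and RPTOR at -0.95 (adjusted p = 2.31e-05). PIK3CB (-0.66, adjusted p = 0.000419), IRS1 (-0.50, adjusted p = 0.000551), AKT2 (-0.41, adjusted p = 0.000619) and IRS2 (-0.39, adjusted p = 0.00142) were lower, and EIF4EBP2 (0.43, adjusted p = 0.000179), PIK3CA (0.39, adjusted p = 0.00462) and RPS6KB2 (0.34, adjusted p = 0.000845) were higher. The other genes called lower were PIK3CD, PHLPP1, MTOR, MAPKAP1, EIF4EBP1 and EIF4B, and the others called higher were PHLPP2, PDPK1 and RHEB. AKT1 (-0.03, adjusted p = 0.692), AKT1S1 (0.04, adjusted p = 0.603), PIK3IP1 (0.08, adjusted p = 0.495) and EIF4E (-0.08, adjusted p = 0.498) were not called there either. With all libraries the values of these genes were -1.10 for DDIT4, -0.64 for RPTOR, -0.46 for PIK3CB and 0.30 for EIF4EBP2, each at an adjusted p of 0.134.

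**Figure D4:**
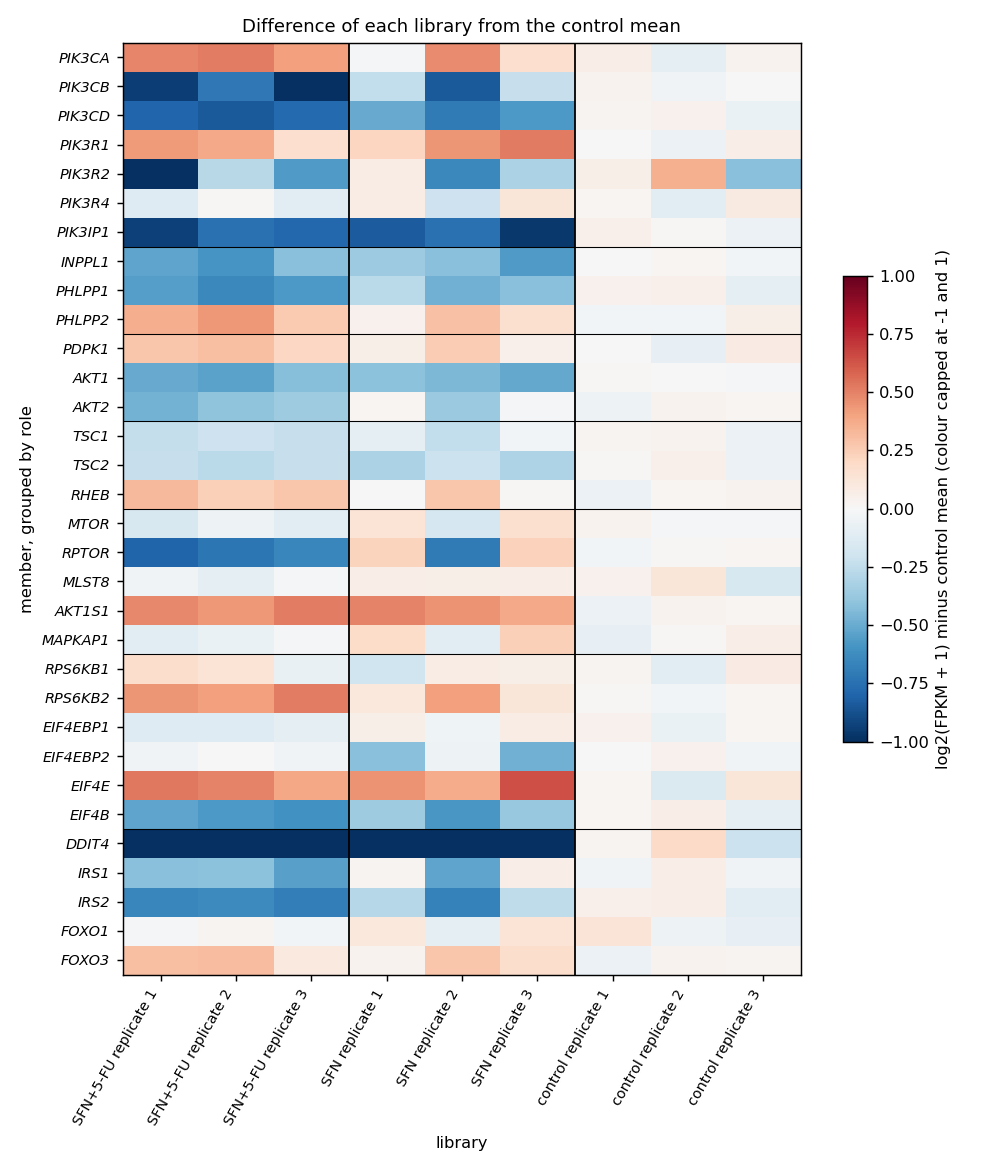
Difference of each library from the control mean on log2(FPKM + 1) for the 32 tested pathway genes, rows grouped by role and columns in the order SFN+5-FU, SFN, control, with colours capped at -1 and 1. SFN replicate 2 resembles the SFN+5-FU columns for PIK3CB, RPTOR, AKT2 and the IRS genes. DDIT4, PIK3IP1, AKT1 and AKT1S1 are among the genes that keep one side of 0 in all 6 treated libraries, as do PIK3CB and IRS2.

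The size of the differences from control also varied by library. The median absolute difference over the 32 genes was 0.43, 0.41 and 0.37 on the log2 scale in SFN+5-FU replicates 1, 2 and 3, and 0.19, 0.39 and 0.23 in SFN replicates 1, 2 and 3. SFN replicate 2 was at the SFN+5-FU level on this measure and the other SFN libraries were below it.

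Around these genes, 97 of 110 genes in lists of further pathway components were tested. With SFN+5-FU 24 of them were called higher and 33 lower than in control cells (median -0.06, 0.10 over all genes), and with SFN 15 higher and 31 lower (median -0.09, 0.05 over all genes). Upstream of PI3K, 4 of 6 tested receptors and adaptors fell and none rose in either comparison. IGF1R, the receptor of insulin-like growth factors, was at 2.04 ± 0.0874 FPKM in SFN+5-FU cells, 2.91 ± 0.589 FPKM in SFN cells and 7.27 ± 0.884 FPKM in control cells (-1.44, adjusted p = 2.22e-05 with SFN+5-FU; -1.09, adjusted p = 0.000153 with SFN). The adaptor GAB2 was at 1.03 ± 0.0321 FPKM in SFN+5-FU cells, 1.02 ± 0.105 FPKM in SFN cells and 2.21 ± 0.262 FPKM in control cells (-0.66, adjusted p = 0.000157 with SFN+5-FU; -0.66, adjusted p = 0.000257 with SFN). These and the following errors are SD with n = 3. Of the PI3K paralogues, PIK3C2A fell with SFN+5-FU (-0.45, adjusted p = 0.0152) and PIK3C2B with SFN (-0.32, adjusted p = 0.015). Of 4 further phosphoinositide phosphatases, INPP5D (-0.49, adjusted p = 0.00269) and INPP4A (-0.37, adjusted p = 0.00121) fell with SFN+5-FU and INPP4A (-0.28, adjusted p = 0.00808) with SFN.

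Of 11 AKT modulators and substrates, 2 rose and 7 fell with SFN+5-FU, and 2 rose and 6 fell with SFN. The pseudokinases TRIB2 and TRIB3 fell furthest. TRIB2 was at 3.8 ± 0.221 FPKM in SFN+5-FU cells, 8.7 ± 4.04 FPKM in SFN cells and 21.3 ± 1.79 FPKM in control cells (-2.21, adjusted p = 0.00014 with SFN+5-FU; -1.30, adjusted p = 0.00385 with SFN). TRIB3, which binds AKT, was at 15.2 ± 1.08 FPKM in SFN+5-FU cells, 16.2 ± 0.504 FPKM in SFN cells and 39.9 ± 0.77 FPKM in control cells (-1.34, adjusted p = 3.07e-06 with SFN+5-FU; -1.25, adjusted p = 7.05e-06 with SFN). Of 4 tested SGK and RSK kinases, SGK3 rose with SFN+5-FU (0.36, adjusted p = 0.0146) and RPS6KA1 fell with SFN (-0.28, adjusted p = 0.0146). Of 11 FOXO targets, 5 were called lower with SFN+5-FU and 6 with SFN, and none was called higher. Without SFN replicate 2 in the shared fit, 2 were called higher and 5 lower with SFN+5-FU (43.4% and 31.3% of all tested genes). With SFN, 0 were then called higher and 9 lower (30.0% and 26.9%). The antioxidant enzyme catalase (CAT) was at 5.22 ± 0.475 FPKM in SFN+5-FU cells, 7.16 ± 1.88 FPKM in SFN cells and 22.8 ± 2.06 FPKM in control cells (-1.94, adjusted p = 1.85e-05 with SFN+5-FU; -1.57, adjusted p = 8.3e-05 with SFN). CCNG2, an atypical cyclin, fell by 0.74 with SFN+5-FU (adjusted p = 0.000694) and by 1.03 with SFN (adjusted p = 0.000211).

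Among the components that carry amino acid signals to mTOR complex 1, the counts went in both directions. Of 13 Rag, Ragulator and folliculin genes, 3 rose and 3 fell with SFN+5-FU, and 1 rose and 4 fell with SFN. RRAGA, a Rag GTPase that recruits mTOR complex 1 to the lysosome, was at 32.2 ± 0.55 FPKM in SFN+5-FU cells, 47.8 ± 12.7 FPKM in SFN cells and 95.5 ± 4.75 FPKM in control cells (-1.54, adjusted p = 5.79e-05 with SFN+5-FU; -1.02, adjusted p = 0.000818 with SFN). LAMTOR3, a subunit of the Ragulator anchor, rose by 0.70 with SFN+5-FU (adjusted p = 0.0016), and FNIP2, a partner of folliculin, fell by 0.41 with SFN (adjusted p = 0.00904). Of 15 GATOR, KICSTOR and sensor genes, 7 rose and 2 fell with SFN+5-FU, led by ITFG2 of KICSTOR (0.75, adjusted p = 0.000313) and WDR59 of GATOR2 (-0.67, adjusted p = 0.000376), and 6 rose and 4 fell with SFN, led by the sestrins SESN2 (-0.60, adjusted p = 0.00444) and SESN3 (-0.57, adjusted p = 0.0231).

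Of 12 AMPK and LKB1 genes, 5 rose and 2 fell with SFN+5-FU, led by the AMPK subunits PRKAB1 (0.52, adjusted p = 0.00385) and PRKAA1 (0.36, adjusted p = 0.00841), and 2 rose and 2 fell with SFN, led by PRKAA1 (0.37, adjusted p = 0.0101) and the LKB1 partner STRADB (0.29, adjusted p = 0.0192). Of 5 mTOR partners and assembly factors, 3 rose and 1 fell with SFN+5-FU, led by PRR5L (-0.64, adjusted p = 0.000514) and TTI2 (0.62, adjusted p = 0.00386), and 2 rose and 1 fell with SFN, led by TTI1 (0.61, adjusted p = 0.000137) and PRR5L (-0.36, adjusted p = 0.0143). Of 14 translation factors, 3 rose and 5 fell with SFN+5-FU, led by the scaffold EIF4G3 (-0.84, adjusted p = 0.000613) and the eIF4E kinase MKNK2 (-0.70, adjusted p = 0.000361), and 2 rose and 2 fell with SFN, led by MKNK2 (-0.50, adjusted p = 0.0037) and EIF4G1 (0.47, adjusted p = 0.000204). The calls for SGK3 and PRKAA1 were not kept after the GC content and length correction (adjusted p = 0.32 and 0.363 with SFN+5-FU), nor were those for PRKAA1 (0.0883) and STRADB (0.146) with SFN. All of these lists were drawn up with earlier results of these data known, and their counts stand beside 66.2% of all tested genes called with SFN+5-FU and 50.0% with SFN.

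**Figure D5:**
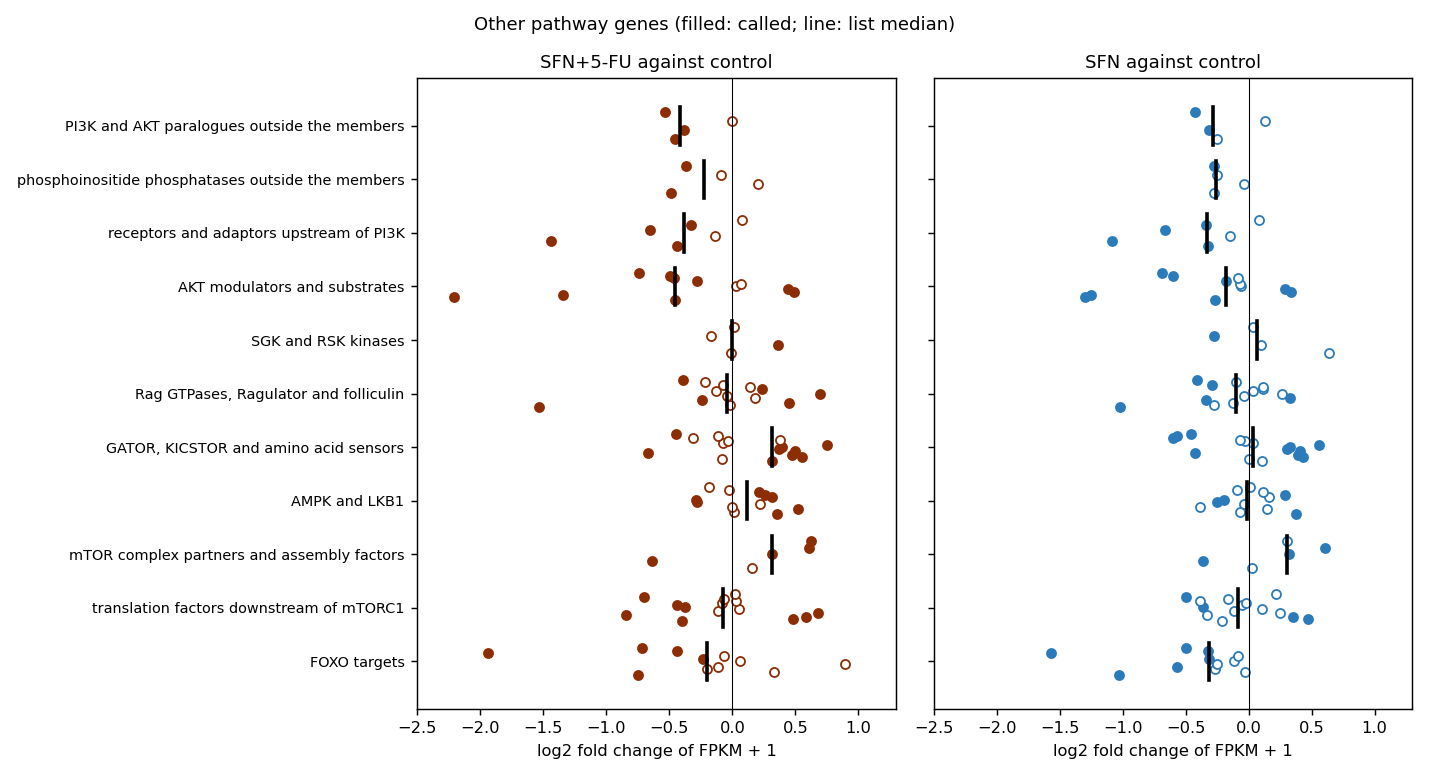
Log2 fold changes of FPKM + 1 for 97 tested genes in 11 lists of other pathway components, SFN+5-FU against control on the left and SFN against control on the right. Filled points were called at an adjusted p of 0.05 and the black line is the list median. The far left points are TRIB2, CAT, RRAGA, IGF1R and TRIB3.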

How the data were processed

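Poly(A) RNA of 9 libraries was sequenced in 3 groups of 3. The authors deposited gene-level FPKM to 2 decimals. Per the submitters' processing notes fastp, StringTie and edgeR were used, with no versions given. Aligner, build and gene models were not given in the sources used here. The FPKM of a library summed to 259184 to 272235. Depth is unknown, so no counting intervals are given, and all table columns were used.

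The table lists 41041 identifiers, of which 41002 could be matched by name and 29784 to a symbol. Values were taken as log2(FPKM + 1), which understates the change of low genes, and the 12662 genes averaging 1 FPKM or more were kept. A single limma model with trended variance over all 9 libraries (6 residual and 3.2 prior degrees of freedom) gave 3 two-sided contrasts with Benjamini-Hochberg adjustment over all tested genes, and a gene is called at an adjusted p of 0.05. The script was tested on simulated data.

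The 38 genes and the lists were chosen with earlier results of these data known. Values in every library are given for called genes and for PIK3CA, AKT1, AKT2, MTOR, RPS6KB1 and EIF4EBP1. Of each other list the 2 called genes of largest change per contrast are named. IRS4, PIK3C2G and SOD2 were not analysed here, and 1 gene of the paralogue list is not reported here. Alternatives changed the pseudocount, filter, scaling, libraries, library weights, replicate block and a GC content and length correction from GENCODE release 29 (12504 genes, 98.8%). Calls named as lost or gained under alternatives were counted over these, 19 or 20 for each gene. Same-number replicates were not treated as pairs. R 4.3.3, limma 3.58.1, Python 3.11.15 and matplotlib 3.10.9 were used.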

Additional observations from a re-analysis of the deposited data

How the results depend on the processing

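With a mean FPKM of at least 5, fewer genes were tested (6939), 20 of them pathway genes. SFN against control then had 3888 genes called (35.9% higher, 20.2% lower), with 2 pathway genes higher and 7 lower. SFN+5-FU against control had 4903 (46.0% higher, 24.7% lower), with 6 pathway genes higher and 7 lower. The 20 pathway genes all kept their calls, so the smaller counts come from genes no longer tested. Pathway genes called higher with SFN numbered 9 with library weights (38.3% of all genes higher) and 6 after the GC content and length correction (26.9%). They numbered 7 with that correction from the longest transcript (26.6%), added after the data were seen. This last setting gave 8 lower with SFN+5-FU (30.7% of all genes lower). SFN+5-FU against SFN had 0 genes called with the 6 libraries alone. With library weights it had 7432, with 6 pathway genes higher and 14 lower. The weights of SFN replicates 1, 2 and 3 were 0.419, 0.0893 and 3.03, so weighted values that involve SFN rest mostly on SFN replicate 3.

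Leaving out each library in turn gave 4845 to 7200 genes for SFN against control, with 3 to 5 pathway genes higher and 8 to 11 lower, and 7287 to 9461 genes for SFN+5-FU against control, with 6 to 9 higher and 12 to 16 lower. SFN+5-FU against SFN ranged from 0 to 6478 genes, 0 to 6 pathway genes higher and 0 to 12 lower, the upper ends being without SFN replicate 2. The direction of RPTOR with SFN reversed without SFN replicate 2 (0.2298) and with library weights (0.2194), its value being -0.2401 without SFN replicate 3, and that of TSC2 with SFN+5-FU under the longest-transcript correction (0.0733); the cause was not tested. Pseudocounts of 0.1 and 5 changed no call of a pathway gene.

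Same-number libraries correlated in their deviations from group means at -0.143 to 0.107, above 0.1 in 1 of 9 pairs. Within the SFN group, replicate 2 stood at -0.799 with replicate 1 and at -0.722 with replicate 3. With 1 library so far apart, these correlations cannot decide whether same-number libraries are pairs. With the replicate block 8151 genes were called for SFN+5-FU against control (9 pathway genes higher, 13 lower), 6038 for SFN against control (3 higher, 10 lower) and 0 for SFN+5-FU against SFN (0 pathway genes). FPKM hold no depth, so the limit it sets on low genes such as DEPTOR is unknown, and 3 libraries a group with 1 apart limit the comparison of SFN+5-FU with SFN.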
